A study of Mus musculus with 24 samples.

Results

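The comparison described here set all 4 lines of a mouse Htt knock-in series against wild-type and Htt knockout cells, in mouse embryonic stem cells (mESC). Its 12 libraries, of 24 in the series, were chosen by their labels: 8 from the knock-in lines Q20, Q50, Q92 and Q111, and 4 from wild type (WT) and knockout (KO), with 2 libraries for each of the 6 genotypes. Per the labels the knock-in lines are heterozygous for an Htt allele with a CAG tract of the length in the line's name, except that the growth protocol gives 89 for the line titled Q92. The 12 other libraries came from neural progenitor cells (NPC) of the same 6 genotypes. A single growth protocol stands under all samples and describes the knock-in series: medium with serum and leukemia inhibitory factor (LIF), on gelatin and a feeder layer of CF-1 mouse embryonic fibroblasts. The labels used here give no separate culture for WT and KO and no number of clones behind a line. Line and culture therefore cannot be told apart from knock-in status, and Q20, with the shortest tract, is on the same side of the comparison as Q111.

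Htt encodes huntingtin, a large scaffold protein, and expanded CAG tracts in the human gene cause Huntington disease. Embryonic stem cells are kept pluripotent by a network of transcription factors around Oct4 (Pou5f1), Sox2 and Nanog, and LIF supports that state through STAT3. Feeder cells are growth-arrested fibroblasts that secrete collagens and other matrix proteins, and their RNA is extracted along with that of the stem cells unless they are removed. Cells that spread on matrix put their actin fibers under tension. Serum response factor (SRF), which binds CArG boxes near contractile genes, and the co-activators YAP and TAZ, which act through TEAD factors, both respond to the state of the actin cytoskeleton.

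Each mESC library held between 58546211 and 81502284 counted reads, recovered from the deposited values. Levels are given as normalised CPM, that is, reads scaled to a common library size. Differences are on the log2(CPM + 1) scale, where low genes appear to differ less than they do, and errors after ± are standard errors of the fitted difference (8 against 4 libraries). Replicate numbers 1 and 2 lay apart on principal component 1 (31% of the variance) in all 6 genotypes. On component 2, with 18%, WT and KO lay between -32.1 and -28.9, Q50 and Q92 between -7.9 and 7.7, and Q20 and Q111 between 27.4 and 38.5. Htt itself was at 124 and 113 CPM in WT and 139 and 68.5 in KO, so its RNA level did not mark the knockout. In the knock-in libraries Htt was at 91.5 to 152 CPM (log2 difference 0.08 ± 0.16, limma adjusted p = 0.806), overlapping both controls. Pou5f1, a defining marker of these cells, was at 279.7 CPM or more in all 12 libraries.

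**Figure D1:**
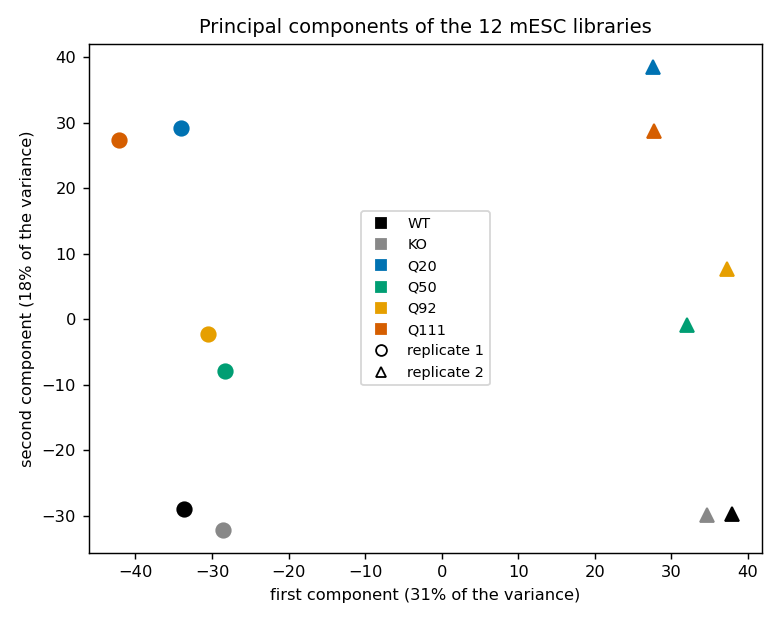
First (horizontal) and second (vertical) principal component of log2(CPM + 1) in the 12 mESC libraries, by genotype and replicate number. The replicate numbers lie at opposite ends of the first component, and WT and KO sit lowest on the second.

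Between the knock-in libraries and the WT and KO libraries, 819 of 13916 tested genes (5.89%) passed an adjusted p of 0.05 in limma with the replicate number as a block. Of these, 462 (3.32% of tested genes) were higher and 357 (2.57%) were lower in the knock-in lines. The difference exceeded 2-fold for 161 of the higher and 36 of the lower genes. All 819 differed in the same direction in each of the 4 lines taken alone. They were called on these same libraries against the same 4 controls, so this agreement is no separate support. The median difference of the higher genes was 1.03 in Q20, 0.69 in Q50, 0.68 in Q92 and 0.84 in Q111. That of the lower genes was -0.69, -0.44, -0.52 and -0.65 in the same order, so Q20 and Q111 stood further from the controls than Q50 and Q92. Among the higher genes, 229 had all 8 knock-in libraries above all 4 controls, and 117 of the lower genes had all 8 below; over all tested genes, called or not, 3.41% had such a separation, 2.07% above and 1.34% below. At an unadjusted p under 0.05, 3468 genes (24.9%) passed. In 86 of the 462 higher genes every control library was under 1 CPM, so those genes entered the test through their knock-in level.

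The lines, 4 against 2, are the separate units here. The labels do not say whether the 2 libraries of a line came from separate cultures. The p-values treat the 12 libraries as independent, with an error that mixes spread between lines and between libraries of a line. With 1 mean value per line 36 genes were called, 34 of them higher, and 34 of the 36 were among the 819. Against KO alone 35 genes were called and against WT alone 255. Leaving out 1 library gave 150 calls without WT replicate 1, 187 without WT replicate 2, 309 without KO replicate 2, 451 and 530 without Q20 replicate 1 and 2, 461 and 447 without Q111 replicate 1 and 2, and 762 to 870 in the 5 other cases. KO and WT differed from each other at 16 genes (0.115%), and none of the 819 was among them. That absence says little, because the share is small and a difference between the controls enlarges the error of the main test.

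A pattern of whole chromosomes ran through the called genes and is given before single genes. On chromosome 8, 91 of 746 tested genes rose and 3 fell, so 12.6% were called there against 5.89% over the genome. On chromosome 11, 57 of 1152 rose and 3 fell, and on chromosome 1, 21 of 781 rose and 48 fell. The median difference over all tested genes was 0.27 on chromosome 8, 0.23 on chromosome 11 and -0.23 on chromosome 1. It lay between -0.11 and 0.05 on each other chromosome with at least 100 tested genes.

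The shift was also visible in single libraries, as the median deviation of a chromosome's genes (mean of at least 5 CPM) from the 6 libraries of the same replicate number. On chromosome 8 the 8 knock-in libraries lay between 0.06 and 0.14, KO at -0.06 and -0.08, and WT at -0.37 and -0.33. WT was thus the lowest genotype there and stood apart from KO as well. On chromosome 11, Q20 and Q111 lay between 0.28 and 0.30, and Q50, Q92, WT and KO between -0.21 and -0.08. On chromosome 1, KO (0.33 and 0.28) and Q50 (0.19 and 0.22) were high, WT was at 0.01 and -0.02, and Q20, Q92 and Q111 were between -0.18 and -0.14. The shifts of chromosomes 1 and 11 ran along their whole length: in Q111 the 4 segments of chromosome 11 with equal numbers of genes had medians of 0.32, 0.29, 0.27 and 0.26. On chromosome 8 the first segment differed from the rest in KO, at 0.13 against -0.14 to -0.09, and in Q92, at -0.04 against 0.09 to 0.10.

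Some lines had shifts of their own. Chromosome 14 was at 0.19 and 0.25 in Q50, and its last segment reached 0.46 in that line. Chromosome 6 was at 0.12 and 0.14 in Q92, where its last 2 segments had medians of 0.26 and 0.34 and its first 2 were within 0.03 of 0. On the 15 other chromosomes no mESC library lay outside -0.08 to 0.11. In NPC, Q20, Q92 and Q111 were again low on chromosome 1 (-0.27 to -0.23, beside 0.14 to 0.30 in the other genotypes), and Q111 (0.35 and 0.33) and Q20 (0.17 and 0.15) were again high on chromosome 11. On chromosome 8 the NPC pattern differed: Q92 lay at -0.23 in both libraries, beside WT at -0.30 and -0.26, and KO was at 0.175 and 0.144. The mESC shifts of chromosome 14 in Q50 and chromosome 6 in Q92 were not seen in NPC. There these lay at -0.034 and 0.024 and at 0.025 and 0.037. DNA copy number was not measured in these files, and its part in the calls was not tested.

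**Figure D2:**
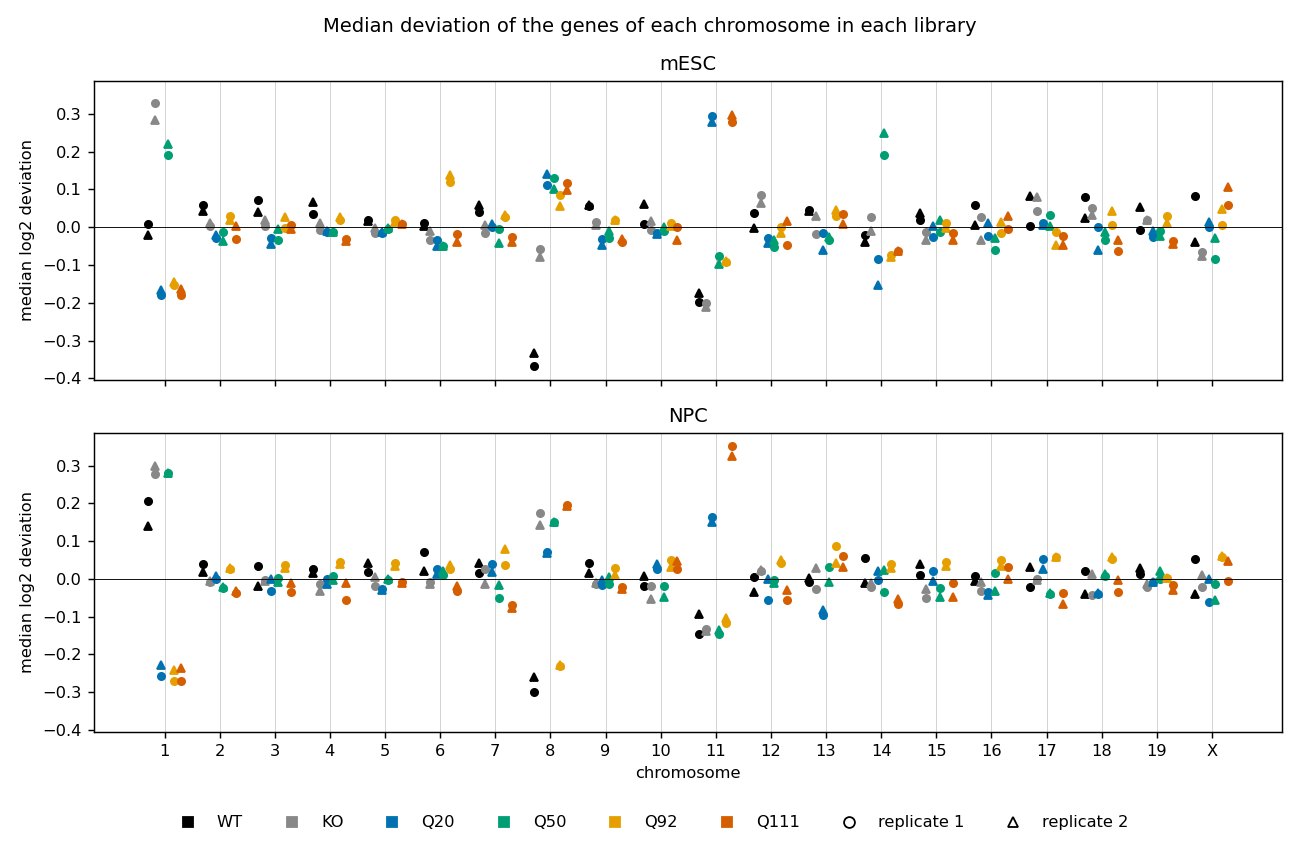
Median log2 deviation (vertical) of the genes of each chromosome (horizontal) in mESC and NPC libraries from the mean of the 6 libraries with the same replicate number. Points of both replicates lie close together, and chromosomes 1, 8 and 11 spread the genotypes in both cell types.

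When each library's chromosome medians were removed, 594 genes were called, 410 higher and 184 lower, and 497 of them were among the 819 (60.7% of the 819 and 83.7% of the 594). Chromosome 8 then held 33 calls, 19 higher and 14 lower, and chromosome 1 held 35 higher and 12 lower. Without the genes of chromosomes 1, 8 and 11 the test called 281 higher and 292 lower genes. Both alternatives were chosen after the data were seen. The split between higher and lower genes thus moved with this choice.

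Among the 12 largest rises were contractile genes, collagens and secreted matrix proteins. Acta2, smooth muscle alpha-actin (chr19:34241090-34255590, GRCm38), was at 2.13 and 3.03 CPM in WT, 1.37 and 2.69 in KO and 30.6 to 96.5 in the knock-in libraries, with a median of 44.2 (log2 difference 3.91 ± 0.27, adjusted p = 1.2e-05). Every knock-in library lay far above the 4 controls. Tagln, the actin-binding protein transgelin (chr9:45929619-45936058), was at 3.07 and 3.47 in WT, 2.33 and 6.78 in KO and 22.8 to 141 in the knock-in libraries, with a median of 37.8 (3.21 ± 0.40, adjusted p = 0.00169). Its groups did not overlap either. Of 18 tested SRF, actin and contractile genes 9 rose and 0 fell, that is 50% called beside 5.89% of all tested genes. Their median difference was 0.67 beside -0.03 over all genes.

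The other risers of that list were the calponins Cnn1 (1.99 ± 0.37) and Cnn2 (1.33 ± 0.30), the myosin light chain Myl9 (1.83 ± 0.35), the tropomyosins Tpm1 (1.38 ± 0.19) and Tpm2 (1.03 ± 0.16), the focal adhesion protein Zyx (0.99 ± 0.21) and the smooth muscle gamma-actin Actg2 (0.75 ± 0.13). Cnn1 was at 0.743 to 3.15 CPM in the controls and 4.04 to 31.4 in the knock-in libraries. Tpm1, which stabilises actin filaments, was at 54.7 to 105 and 132 to 483. Groups did not overlap for these 2. Actg2 was low throughout, at 0.0412 to 0.225 and 0.332 to 1.65, and reached the filter on low values only through its knock-in libraries, so it had to differ and 8 risers remain without it. Groups did not overlap for Cnn2 and Zyx, but they did for Myl9 and Tpm2. None of the 9 risers lies on chromosomes 1, 8 or 11. With 1 mean per line 2 of the 18 were called, and with KO alone as control 1 was.

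Known targets of YAP and TEAD rose in 6 of 16 cases (37.5% called, beside 5.89% of all tested genes). Of the 16, 0 fell, and the median difference was 0.62. Thbs1, the secreted glycoprotein thrombospondin-1 (chr2:118111876-118127133), was at 9.56 and 13.7 CPM in WT, 8.29 and 15.7 in KO and 103 to 260.1 in the knock-in libraries, with a median of 166 (3.80 ± 0.21, adjusted p = 2.2e-06). The matricellular protein Cyr61 was at 3.86 to 9.70 in the controls and 13.2 to 63.4 in the knock-in libraries (2.41 ± 0.34, adjusted p = 0.00405). The related Ctgf was at 13.5 to 39.9 and 47.3 to 133 (1.65 ± 0.31, adjusted p = 0.0143). For each of these 3 all knock-in libraries were above all controls. Ankrd1, an ankyrin repeat protein of stretched muscle, was at 0.357 to 1.01 and 3.90 to 10.6 (2.31 ± 0.24, adjusted p = 0.000373). The receptor tyrosine kinase Axl rose by 1.83 ± 0.17, and the growth factor Tgfb2, on chromosome 1, by 1.38 ± 0.35, although edgeR did not call Tgfb2 (adjusted p = 0.0537). Of the 16, 3 were called with 1 mean per line and 3 with KO alone.

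Promoter sequence was compared for these 2 lists, of which 6 of 16 and 9 of 18 members had risen. In the 250 bases before the start site (RefSeq, GRCm38.p6), GGAATG or its reverse complement CATTCC, the core TEAD motif, was found on the windows of 7 of 14 YAP and TEAD targets (50%) and of 12.6% of 32851 promoters overall. The CArG box, searched by its consensus on both strands, was in 5 of 15 windows of the contractile list (33.3%) and in 1.5% overall. The contractile list also held the TEAD motif in 5 of 15 windows, and 0 of the 14 YAP and TEAD windows held a CArG box. Both lists were drawn from known targets, so the shares describe the lists and not the change. Of the contractile risers with a window, Cnn2 and Myl9 held a CArG box, and Acta2, Cnn1, Tpm1, Tpm2 and Zyx held none. The uncalled Actg1, Vcl and Srf held it as well. Among YAP and TEAD risers Cyr61, Ankrd1 and Axl held the TEAD motif and Tgfb2 did not. The uncalled Amotl2, Ajuba, Crim1 and Ptpn14 held it too. The windows below are thus examples that hold a motif. Windows of 4 called genes are shown 5' to 3' on the transcribed strand with the motif in capitals: Ankrd1 (minus strand, chr19:36119845-36120094, matches 210 and 123 bases before the start), Cyr61 (minus, chr3:145649986-145650235, 103 bases), Myl9 (plus, chr2:156775214-156775463, CArG box 161 bases) and Cnn2 (plus, chr10:79988350-79988599, 56 bases).
Ankrd1: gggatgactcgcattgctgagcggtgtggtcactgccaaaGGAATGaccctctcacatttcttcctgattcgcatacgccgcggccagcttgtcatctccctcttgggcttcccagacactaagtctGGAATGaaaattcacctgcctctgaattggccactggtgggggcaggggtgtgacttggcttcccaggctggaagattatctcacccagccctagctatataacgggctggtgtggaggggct
Cyr61: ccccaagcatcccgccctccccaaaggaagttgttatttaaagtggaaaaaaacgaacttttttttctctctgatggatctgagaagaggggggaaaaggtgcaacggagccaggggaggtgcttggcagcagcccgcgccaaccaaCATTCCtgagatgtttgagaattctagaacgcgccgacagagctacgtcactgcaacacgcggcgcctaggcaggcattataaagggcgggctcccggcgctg
Myl9: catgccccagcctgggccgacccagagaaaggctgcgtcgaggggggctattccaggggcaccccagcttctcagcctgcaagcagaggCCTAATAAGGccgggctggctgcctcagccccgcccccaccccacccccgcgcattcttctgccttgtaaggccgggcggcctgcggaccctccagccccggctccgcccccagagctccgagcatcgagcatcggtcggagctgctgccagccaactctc
Cnn2: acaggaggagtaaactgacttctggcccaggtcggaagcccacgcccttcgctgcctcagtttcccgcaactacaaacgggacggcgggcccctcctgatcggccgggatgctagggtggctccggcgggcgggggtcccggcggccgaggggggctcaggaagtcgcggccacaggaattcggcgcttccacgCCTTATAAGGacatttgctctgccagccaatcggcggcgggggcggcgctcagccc

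**Figure D3:**
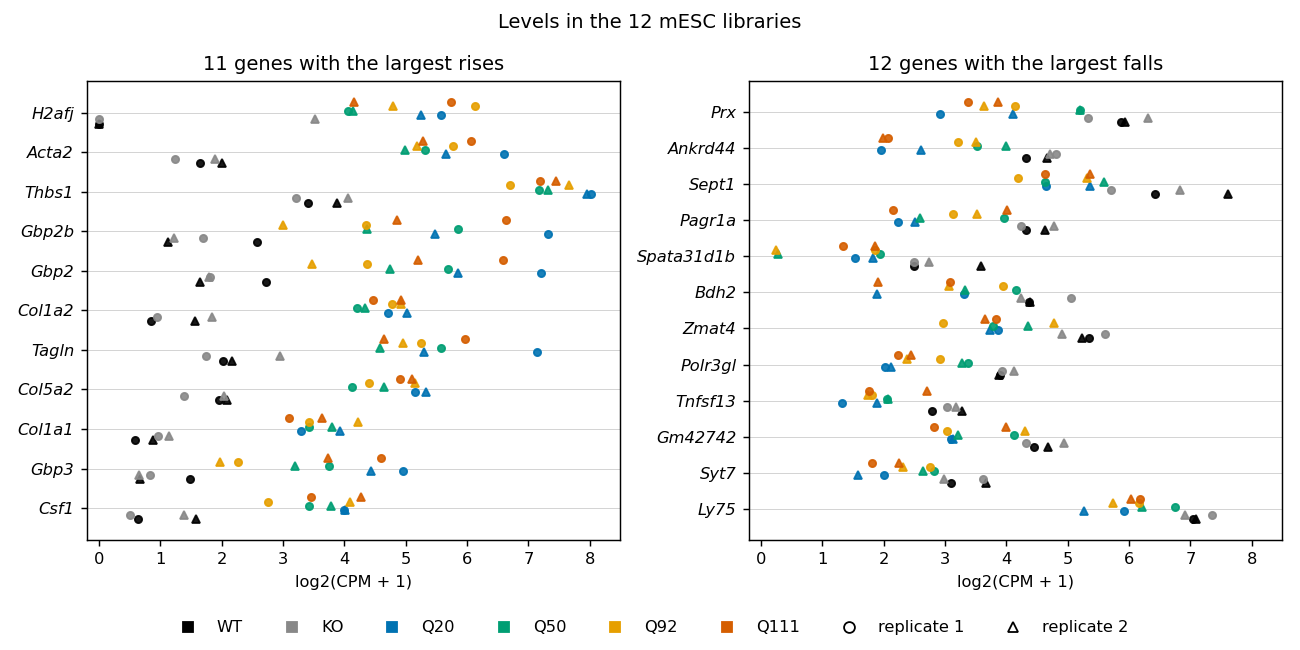
Levels, as log2(CPM + 1), of the 11 genes with the largest rises and the 12 with the largest falls in the 12 mESC libraries, by genotype. For each gene all 8 knock-in libraries lie on one side of the 4 WT and KO libraries, which the choice of genes required.

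Fibrillar collagens were the next group. Col1a2, the alpha-2 chain of type I collagen (chr6:4504814-4541544), was at 0.808 and 1.95 CPM in WT, 0.920 and 2.60 in KO and 17.5 to 31.4 in the knock-in libraries, with a median of 25.7 (3.37 ± 0.18, adjusted p = 2.2e-06). Its partner chain Col1a1 (chr11:94936224-94953042) was at 0.494 and 0.850 in WT, 0.947 and 1.21 in KO and 7.59 to 17.6, with a median of 10.6 (2.71 ± 0.15, adjusted p = 2.2e-06). Col5a2, a chain of the minor fibrillar collagen V (chr1:45374321-45503282), was at 1.61 to 3.26 in the controls and 16.4 to 39.4 in the knock-in libraries (2.99 ± 0.20, adjusted p = 1.2e-05). All 3 were high in every knock-in line, and none was called in the F test among the 4 lines (adjusted p = 0.522 for Col1a1, 0.362 for Col1a2 and 0.172 for Col5a2). Col5a2 rose although chromosome 1 as a whole was lower in Q20, Q92 and Q111.

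Of 17 tested feeder fibroblast markers 10 rose and 0 fell (58.8% called, beside 5.89% of all tested genes), with a median difference of 0.73. Besides those 3 collagens they were Col3a1 (1.85 ± 0.39), Col6a1 (1.08 ± 0.14), Col5a1 (0.73 ± 0.15), the matricellular Postn (1.20 ± 0.12), the intermediate filament Vim (0.88 ± 0.20), the mesenchymal transcription factor Prrx1 (0.76 ± 0.20) and the microfibril protein Fbn1 (0.55 ± 0.14). Col3a1 was not called by edgeR (adjusted p = 0.15). In 3 of the 10 every control library was under 1 CPM, as for Postn, at 0.0494 to 0.192 in the controls and 0.991 to 2.26 in the knock-in libraries. Fibroblast genes that did not pass the test were Thy1 (0.08), Pdgfrb (0.22), Twist1 (0.06), Dcn (0.50), Col6a2 (0.62), Fn1 (-0.06) and Pdgfra (-0.92). Of the 20 listed genes 18 were in the table and 17 reached the filter on low values.

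The summed level of the 17 markers was 446 to 1055 CPM in the controls and 532 to 986 in the knock-in libraries, so the groups overlapped. Fn1 and Vim made up 73 to 94.7% of it. Without them the sum was 55.7 to 77.3 CPM in the controls and 126 to 188 in the knock-in libraries, with no overlap. This split was made after the values were seen. Collagens and Postn alone summed to 18.3 to 24.7 CPM in the controls and 78.8 to 138 in the knock-in libraries, so the gap lay largely in them. Most of them were called as rises on these same libraries, so the reduced sum is no separate support. In bulk RNA, more cells of a type and more of its RNA per cell cannot be told apart. The part of feeder RNA in the rises of contractile and matrix genes was not tested. With 1 mean per line 5 of the 17 markers were called, and with KO alone 4.

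Matrix and basement membrane genes gave 5 rises and 0 falls among 23 (21.7%, beside 5.89% of all tested genes), with a median of 0.08. Apart from Thbs1 they were tenascin C, Tnc (2.93 ± 0.57), the collagen cross-linking enzyme Lox (1.77 ± 0.21) and the metalloproteinase inhibitors Timp3 (1.21 ± 0.25) and Timp1 (0.70 ± 0.16). Tnc varied with the replicate number: it was at 0.461 to 13.9 CPM in the controls, at 13.0 to 18.7 in knock-in libraries of number 1 and at 55.4 to 147 in those of number 2. The groups overlapped, and edgeR did not call Tnc (adjusted p = 0.108). Lox was at 0.659 to 2.32 and 2.43 to 14.2, without overlap.

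A secreted regulator, the macrophage growth factor Csf1 (chr3:107741048-107760469), was at 0.412 to 1.98 CPM in the controls and 5.77 to 18.4 in the knock-in libraries, with a median of 13.9 (2.70 ± 0.20, adjusted p = 1.8e-05). Of 14 BMP and TGF-beta targets 2 rose and 0 fell (14.3% called, beside 5.89% of all tested genes), with a median of 0.14. The focal adhesion adaptor Tgfb1i1 (0.85 ± 0.18) was among the 2. Every control library was under 1 CPM for Tgfb1i1, so it entered the test through its knock-in libraries and had to differ. At a mean of at least 5 CPM, 12 members remained and 1 rose.

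Among 13 integrins the beta-1 chain Itgb1, on chromosome 8, rose (0.70 ± 0.09, and 0.45 once chromosome medians were removed; from 321 to 406 CPM in the controls to 448 to 746). The laminin receptor chain Itga6 fell (-0.69 ± 0.18), a call that neither edgeR made (adjusted p = 0.0548) nor the fit without chromosome medians (adjusted p = 0.07). Of 12 Wnt targets Tcf7, on chromosome 11, rose (0.60 ± 0.15) and the Wnt inhibitor Dkk1 fell (-0.80 ± 0.20). With chromosome medians removed neither was called (Tcf7 0.34, adjusted p = 0.179, and Dkk1 -0.71, adjusted p = 0.0794). Egr1, an immediate early transcription factor, was the 1 called member of 14 FGF and ERK targets (1.20 ± 0.18). The called shares were 15.4% of integrins, 16.7% of Wnt targets and 7.14% of FGF and ERK targets, beside 5.89% of all tested genes.

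**Figure D4:**
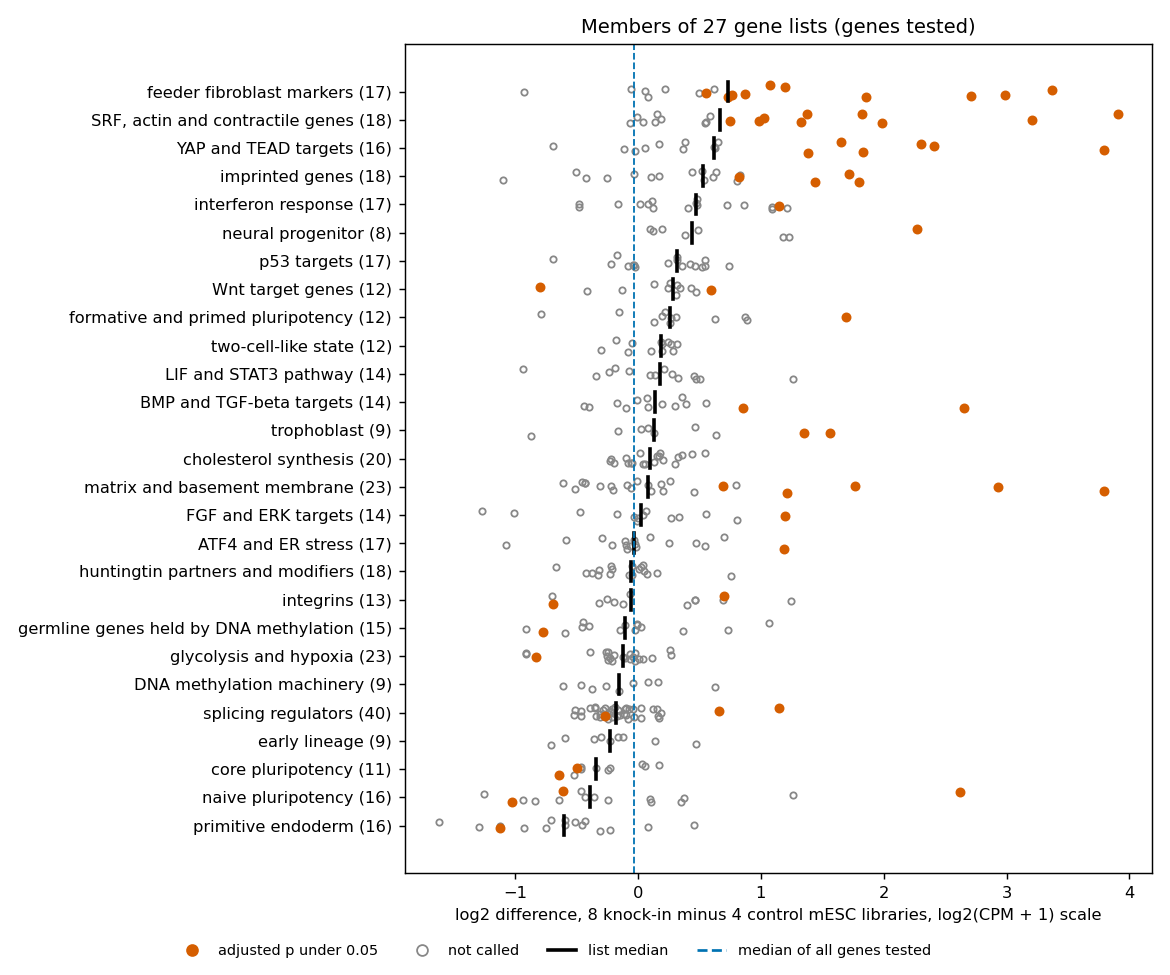
Log2 difference of each tested member of 27 gene lists (number tested in brackets), 8 knock-in minus 4 control mESC libraries, with filled points for adjusted p under 0.05, black bars for list medians and a dashed line for all tested genes. The fibroblast, contractile and YAP and TEAD lists have the highest medians, 0.73, 0.67 and 0.62.

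Guanylate-binding protein genes, which encode interferon-inducible GTPases, had levels that differed between lines. They are similar neighbours on chromosome 3, where reads of near-identical copies may be shared, so their separate values are uncertain. Gbp2 (chr3:142620602-142638008) was at 5.62 and 2.12 CPM in WT and 2.51 and 2.45 in KO. In the knock-in libraries it was at 146 and 56.9 in Q20, 94.7 and 36.0 in Q111, 50.4 and 25.8 in Q50 and 19.6 and 10.1 in Q92 (3.40 ± 0.51, adjusted p = 0.0062). Gbp2b (3.58 ± 0.53) and Gbp3 (2.71 ± 0.50) had the same order of line means, with Q20 highest and Q92 lowest. All 3 were called in the F test among the knock-in lines (adjusted p = 0.0308 for Gbp2, 0.0268 for Gbp2b and 0.0118 for Gbp3). With 1 mean per line none of the 3 was called (adjusted p = 0.118, 0.116 and 0.171).

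Of 17 tested interferon response genes, a list without the Gbp genes, 0 fell and the median was 0.47. Of the 17, 1 rose (5.88%, near the 5.89% of all tested genes called). It was B2m, the light chain of class I histocompatibility molecules, at 4.32 to 13.9 CPM in the controls and 11.1 to 32.5 in the knock-in libraries (1.15 ± 0.22, adjusted p = 0.0152). Ifit2 (1.21 ± 0.34, adjusted p = 0.0554), Oasl2 (1.09 ± 0.35, adjusted p = 0.0866) and Ifitm2 (-0.48 ± 0.15, adjusted p = 0.0734) did not pass.

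Dppa3, a maternal and germ cell protein that guards DNA methylation in the early embryo, had the same order of line means. It was at 1.76 to 2.59 CPM in the controls, 48.3 and 24.1 in Q20, 41.7 and 29.2 in Q111, 14.2 and 15.0 in Q50 and 6.53 and 4.91 in Q92 (2.62 ± 0.52, adjusted p = 0.0185). The lines differed for it too (F test adjusted p = 0.0171), and with 1 mean per line it was not called (adjusted p = 0.182). H2afj, a histone H2A variant, had the largest fitted difference of the named genes (4.10 ± 0.66, adjusted p = 0.00763). It was listed at 0 in both WT libraries and in KO replicate 1, at 10.5 CPM in KO replicate 2 and at 15.6 to 69.2 in the knock-in libraries. Its call depended on the test, since edgeR on the recovered reads did not make it (adjusted p = 0.159).

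Imprinted genes, which are expressed from 1 parental allele, gave 4 rises and 0 falls among 18, with a median of 0.53. The called share was 22.2%, beside 5.89% of all tested genes. Peg3 was at 26.5 and 45.9 CPM in WT, 57.6 and 34.4 in KO and 82.6 to 219.6 in the knock-in libraries (1.8 ± 0.23, adjusted p = 0.00226). Mest was at 36.3 to 86.9 in the controls and 107 to 282 in the knock-in libraries (1.72 ± 0.21, adjusted p = 0.00131). The growth factor gene Igf2 was at 1.11 to 3.35 and 4.01 to 11.3 (1.44 ± 0.24, adjusted p = 0.00849). Groups did not overlap for those 3, while the fourth, Impact, did overlap (0.83 ± 0.21, adjusted p = 0.0398). None of the 4 lies on chromosomes 1, 8 or 11, and with 1 mean per line Peg3 alone was called (adjusted p = 0.0372).

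Calls in lists of other cell states were 1 of 8 neural progenitor genes (12.5%), 2 of 9 trophoblast genes (22.2%) and 1 of 12 formative and primed pluripotency genes (8.33%), beside 5.89% of all tested genes. Nes, the intermediate filament nestin of neural progenitors, was at 8.42 to 26.0 CPM in the controls and 41.5 to 158 in the knock-in libraries (2.27 ± 0.36, adjusted p = 0.00668). The 7 other tested neural progenitor genes did not pass, Tubb3 at 1.23 ± 0.33 (adjusted p = 0.0512) and Pax6 at 0.39 ± 0.20 (adjusted p = 0.257) among them. The keratins Krt8 (1.56 ± 0.31) and Krt18 (1.36 ± 0.26), partners in filaments of simple epithelia, were the 2 called genes of 9 trophoblast genes. Krt8 was at 17.9 to 26.2 and 40.2 to 175. Cdh2, N-cadherin, was the 1 called gene of 12 formative and primed pluripotency genes (1.70 ± 0.24, 2.04 to 4.81 CPM in the controls and 6.28 to 23.0 in the knock-in libraries).

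Of 11 core pluripotency genes 0 rose and 2 fell (18.2% called, beside 5.89% of all tested genes), with a median of -0.34. Pou5f1 was at 421 and 880.0 CPM in WT, 359 and 813 in KO and 279.7 to 562 in the knock-in libraries (-0.49 ± 0.13, adjusted p = 0.0453). Among libraries of replicate number 1 the groups overlapped, and among those of number 2 they did not. Dppa5a, an RNA-binding protein of pluripotent cells, was at 601 to 1343 and 374 to 874 (-0.64 ± 0.17, adjusted p = 0.0467). Nanog, at 279 to 433 and 234 to 617, gave 0.06 ± 0.26 (adjusted p = 0.911). The calls of Pou5f1 and Dppa5a were each lost in 9 of 12 fits that left out 1 library, and with chromosome medians removed (adjusted p = 0.0863 and 0.0833). Sox2 was not analysed here.

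Among 16 naive pluripotency genes, with a median of -0.39, Dppa3 rose, and Prdm14 (-0.61 ± 0.14) and Tcl1 (-1.02 ± 0.27) fell. These 3 calls were 18.8% of the list, beside 5.89% of all tested genes. Esrrb had a difference of -0.64 ± 0.26 (adjusted p = 0.157) and Klf4 of 0.10 ± 0.39 (adjusted p = 0.9). Tbx3 and Tfcp2l1, transcription factors of the naive state, were called in the F test among knock-in lines (adjusted p = 0.0334 and 0.0118). Tbx3 was at 34.7 to 95.4 CPM in the controls, 9.92 and 27.1 in Q20, 27.4 and 59.0 in Q50, 29.1 and 78.0 in Q92 and 3.32 and 22.5 in Q111. With chromosome medians removed Prdm14 went to -0.35 (adjusted p = 0.217) and Tcl1 to -0.91 (adjusted p = 0.0922). Of the 2 core and 3 naive calls none was made with 1 mean per line.

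Primitive endoderm genes had the lowest median of the lists, -0.60, with 1 fall and 0 rises among 16. The called share, 6.25%, was near the 5.89% of all tested genes. The 1 call was Amn (-1.12 ± 0.27, adjusted p = 0.0344), which with Cubn forms an endocytic receptor, and it was not called with chromosome medians removed (adjusted p = 0.0637). Cubn was at 32.0 to 219 CPM in the controls and 14.3 to 51.0 in the knock-in libraries, with overlap (-1.62 ± 0.48, adjusted p = 0.0699). The endocytic adaptor Dab2 gave -1.29 ± 0.39 (adjusted p = 0.0724). The summed level of the list was 1435 to 1741 CPM in the controls, 1806 to 1849 in Q50 and 884 to 893 in Q92, so the lines did not move together.

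The largest falls were smaller than the largest rises. Prx, periaxin, a scaffold protein of myelinating cells (chr7:27499324-27520214), was at 57.3 and 59.9 CPM in WT, 39.1 and 78.2 in KO and 6.52 to 35.7 in the knock-in libraries, with a median of 14.9 (-1.8 ± 0.39, adjusted p = 0.0248). Ankrd44, a regulatory subunit of a protein phosphatase (chr1:54645340-54926387), was at 19 to 27.1 and 2.86 to 15.0 (-1.77 ± 0.38, adjusted p = 0.0249). It lies on chromosome 1, and its level differed among the knock-in lines, highest in Q50 (F test adjusted p = 0.0296).

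Sept1, a septin of the cytoskeleton (chr7:127214447-127233130), was at 84.6 and 194 CPM in WT, 51.0 and 112 in KO and 17.3 to 47.1 in the knock-in libraries (-1.68 ± 0.17, adjusted p = 0.000376). Zmat4, a zinc finger protein on chromosome 8, was at 29.0 to 47.8 and 6.85 to 26.5 (-1.41 ± 0.27, adjusted p = 0.015) and so fell while most called genes of its chromosome rose. Of the 12 largest falls these 2 were also called with 1 mean per line (adjusted p = 0.0441 and 0.0194).

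The 8 other falls were Pagr1a, of a histone methyltransferase complex (-1.48 ± 0.36), Spata31d1b (-1.47 ± 0.37), the dehydrogenase Bdh2 (-1.43 ± 0.32), the RNA polymerase III subunit Polr3gl (-1.36 ± 0.27), the cytokine Tnfsf13 (-1.15 ± 0.19), Gm42742 (-1.13 ± 0.27), the calcium sensor Syt7 (-1.07 ± 0.25) and the endocytic receptor Ly75 (-1.07 ± 0.19). Ly75 was at 119.8 to 162 CPM in the controls and 37.6 to 107 in the knock-in libraries. Pagr1a and Gm42742 overlap on chromosome 7, and Spata31d1b belongs to a multigene family, so reads of these 3 may be split between genes. Neither Spata31d1b nor Pagr1a was called by edgeR (adjusted p = 0.108 and 0.0582), and Spata31d1b was not called with chromosome medians removed (adjusted p = 0.0634).

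In 3 lists of metabolism, stress and germline genes 4.35%, 5.88% and 6.67% of members were called, near the 5.89% of all tested genes. Pdk1, a kinase that restrains entry of pyruvate into the mitochondrial cycle, fell (-0.82 ± 0.19, 456 to 713 CPM in the controls and 226 to 507 in the knock-in libraries) as the 1 call of 23 glycolysis and hypoxia genes. The transcription factor Atf5 was the 1 rise among 17 ATF4 and ER stress genes (1.19 ± 0.26), at 1.17 and 1.59 in WT, 4.28 and 4.30 in KO and 4.34 to 12.2 in the knock-in libraries; edgeR did not call it (adjusted p = 0.0547). Sycp3, of the meiotic synaptonemal complex, fell among 15 germline genes (-0.77 ± 0.20), but not once chromosome medians were removed (adjusted p = 0.0826).

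Of 40 splicing regulators the epithelial factors Esrp1 (1.15 ± 0.28) and Esrp2 (0.66 ± 0.16, on chromosome 8) rose and Srsf3 fell (-0.27 ± 0.07), the last not called by edgeR (adjusted p = 0.0609). These 3 calls were 7.5% of the list, beside 5.89% of all tested genes. With chromosome medians removed Esrp2 went to 0.41 (adjusted p = 0.187) and Srsf3 to -0.17 (adjusted p = 0.186), so both calls ended. Esrp1 was at 10.6 to 32.6 CPM in the controls and 21.2 to 59.1 in the knock-in libraries, with overlap, and the list's median was -0.18. In limma no member was called, in either direction, among 18 huntingtin partners and modifiers, 20 cholesterol synthesis genes, 17 p53 targets, 14 LIF and STAT3 pathway genes, 12 genes of the state that resembles the early cleavage embryo, 9 early lineage genes, 9 genes of the DNA methylation machinery or 4 Y-linked genes. Of these 103 list entries 26 had an unadjusted p under 0.05, beside 24.9% of all tested genes, and edgeR called 2, the death receptor Fas among the p53 targets (adjusted p = 0.041) and the Y-linked Kdm5d (adjusted p = 0.0498). Within 5 megabases of Htt 7 of 113 tested genes were called (6.19%), near the 5.89% over the genome.

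The 4 knock-in lines differed among themselves at 222 genes (1.6%) in the F test, and 14 of these were among the 819. By line mean, all 9 called contractile genes and all 6 called YAP and TEAD targets were highest in Q20. Over all 462 higher genes the median difference was also largest in Q20 (1.03). The share of the 462 that was highest in Q20 is not given here, so these counts lack a background. Tagln, for example, had a mean of 89.6 CPM in Q20 beside 34.7 in Q50, 33.5 in Q92 and 42.8 in Q111, and was not called in the F test (adjusted p = 0.581). None of these 15 genes was called in the F test, which does not show that the lines were alike. Both Q20 libraries of Thbs1 (260 and 247 CPM) lay above the 6 other knock-in libraries (103 to 202), and both lay above them for Cyr61, Axl, Cnn2, Myl9 and Zyx as well. For the other 9 genes they did not. Col1a1 had its highest mean in Q92.

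In NPC the same contrast called 18 of 13206 genes (0.136%), 8 higher and 10 lower, and 1209 (9.15%) passed an unadjusted p under 0.05. Of the 462 mESC rises 402 were tested in NPC, 276 had the same sign and 1 was called; of the 357 falls 308 were tested, 191 had the same sign and 0 were called. The share with the same sign over all genes tested in both cell types is not given here, so these counts lack a background. The median NPC difference was 0.24 for the 402 and -0.08 for the 308, beside 0.015 over all genes tested in NPC. A test of the difference between the cell types called 69 of 12321 genes (0.56%), of which 49 (0.398%) had a knock-in difference lower in NPC, and 31 of the mESC rises and 4 of the falls were among the 69. It reuses the mESC values by which rises and falls were called, so a smaller difference in NPC was favoured for them. The NPC and mESC tables were scaled separately, so levels were not compared between them.

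Acta2 had a knock-in difference of -0.91 ± 0.69 in NPC, and the change from mESC, -4.82 ± 0.78, was called (adjusted p = 0.00744). Changes from mESC of -3.01 ± 0.66 for Thbs1 (adjusted p = 0.0395), -2.21 ± 0.41 for Csf1 (adjusted p = 0.0189) and -3.09 ± 0.66 for Gbp2b (adjusted p = 0.033) were called as well. The other named genes with a lower difference in NPC were Tnc, Cyr61, Axl, Cdh2, Tpm1 and Axin2, and those with a higher one were Fst and Hap1. Cnn2, outside the rule for named genes, was also lower (-2.34 ± 0.53, adjusted p = 0.047). The 3 collagens were not called and did not share a direction: in NPC Col1a2 had 2.63 ± 1.52, Col1a1 1.41 ± 1.17 and Col5a2 -0.79 ± 1.07. The change from mESC was -3.78 ± 1.14 for Col5a2 (adjusted p = 0.201), and the adjusted p was 0.928 for Col1a2 and 0.794 for Col1a1.

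**Figure D5:**
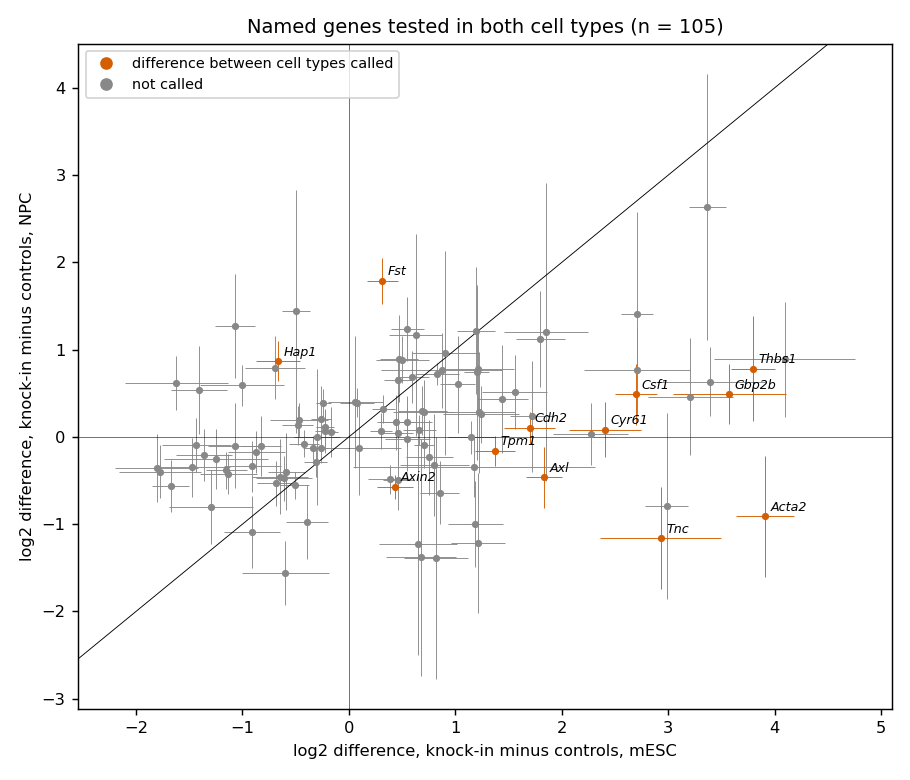
Log2 difference, knock-in minus WT and KO, in mESC (horizontal) and NPC (vertical) for the 105 named genes tested in both; the diagonal marks equal differences. The difference between cell types was called for 12 of them, and 10 of those lie below the diagonal. Most named genes were chosen by their mESC difference, which favours a smaller difference in NPC.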

How the data were processed

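The series holds RNA-seq of 12 mESC and 12 NPC libraries. The values used are a deposited normalised CPM signal, 1 table per cell type, made by the authors, with columns matched to samples by name. Dividing by each library's smallest step gave whole numbers for 100% of entries (tolerance 0.02), so reads were recovered (58546211 to 81502284 per mESC library, 48525333 to 118038952 per NPC library). The submitters' processing notes name CASAVA 1.8, STAR and GRCm38.p6. The counting tool, strand setting and filters are not given in the sources used here, so reads of overlapping genes cannot be told apart.

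Genes with at least 1 CPM in at least 2 libraries were tested on log2(CPM + 1) with limma 3.58.1 (R 4.3.3), knock-in against WT and KO with the replicate number as a block, and p-values were adjusted (Benjamini-Hochberg) over all tested genes. edgeR 4.0.16 (quasi-likelihood) and DESeq2 1.42.0 on the recovered reads were alternatives, since the values were a signal and not counts. An F test compared the 4 lines, and a joint fit compared NPC with mESC. The replicate numbers paired the mESC libraries: in all 15 genotype pairs the deviations of same-numbered libraries correlated (0.25 to 0.547). In NPC 3 of 15 pairs exceeded 0.1 (range -0.0495 to 0.467), so there the number is only a shared label.

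Named genes are Htt, called genes of more than 1 exon whose groups did not overlap and whose higher side averaged 5 CPM or more (the top 12 by difference in each direction), up to 4 members per list with the smallest p, and Pou5f1, Nanog, Klf4, Esrrb, Col1a1, Col1a2 and Col3a1. Other called or absent members of a list were named after their values were seen. The members and lists were chosen with earlier results of these data known. A result on 1 gene is not reported here. Gene positions come from GENCODE M21 on GRCm38. On simulated data with the same layout of libraries, 28 of 50 genes changed 2-fold and 98% of those changed 4-fold were called. Of 13441 unchanged genes 14 were called. With 1 mean value per line the simulation still called 27 and 47 of 50, whereas in the data 819 calls became 36. The simulation thus lacked the loss of calls seen in the data, so its share of false calls cannot be carried over to them.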

Additional observations from a re-analysis of the deposited data

Results flagged for a closer look

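In the libraries of 1 group, 7 named genes had a single value far from the others. Both groups were examined for Htt, the 12 largest rises, the 12 largest falls, Pou5f1, Nanog, Klf4, Esrrb and Col3a1. Chance alone gives such a value in about 1 in 20 groups examined, if values follow a single normal distribution. These libraries differ by line and replicate number, so that rate is only a guide. Among the 8 knock-in libraries, Col3a1 was at 13.6 CPM in Q20 replicate 2 with the next at 5.86, Tagln was at 141 CPM in Q20 replicate 1 with the next at 61.5, and Tnfsf13 was at 5.55 CPM in Q111 replicate 2 with the next at 3.2. Among the 4 WT and KO libraries, Bdh2 was at 32.3 CPM in KO replicate 1 with the next at 20.0, and Gbp2 was at 5.62 CPM in WT replicate 1 with the next at 2.51. H2afj was at 10.5 CPM in KO replicate 2 with the other 3 at 0, and Spata31d1b was at 11 CPM in WT replicate 2 with the next at 5.64.

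For 4 of the genes with the largest rises the knock-in difference was not the same in the 2 cell types, by the test of that difference in limma. These genes were chosen by their mESC difference, which the test reuses, so a smaller difference in NPC was favoured. NPC minus mESC was -4.82 for Acta2, -3.01 for Thbs1, -3.09 for Gbp2b and -2.21 for Csf1 on the log2(CPM + 1) scale.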

How the results depend on the processing

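The 819 mESC calls became 36 with 1 mean value per line, 255 with WT alone, 35 with KO alone, 32 within replicate number 1, 138 within number 2, 280 without the Q20 line, 255 without the Q111 line, 2121 with a contrast of 6 group means and 1918 with DESeq2, and lay between 150 and 870 when 1 library was left out. Without the replicate block 100 genes were called. A mean of at least 5 CPM left 257 higher and 289 lower genes, and edgeR called 820.

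The 18 NPC calls became 0 with 1 mean per line and within either replicate number (limma, with 439, 1014 and 424 genes at an unadjusted p under 0.05), 5 with edgeR, 3 with WT alone, 1742 with a contrast of 6 group means, 362 with DESeq2, and 43, 81 and 2 without the Q50, Q92 and Q111 lines; leaving out 1 library gave 1 to 18. The 69 calls between cell types became 29 without the block, 114 without a filter and 41 at a mean of at least 5 CPM, and 15 to 77 with 1 library left out. The 222 calls among lines became 10 without the block and 15 to 136 with 1 library left out, and the 16 between KO and WT became 2 without the block and 5 to 21.

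Differences of uncalled genes changed sign in places: Klf4 to -0.47 with KO alone, -0.17 within replicate number 2, -0.067 and -0.11 without the Q50 and Q92 lines, and -0.26 to 0.32 with 1 library left out; Nanog to -0.13 within number 2, -0.023 without Q92, and -0.041 to 0.19 with 1 library left out; Htt to -0.062 with WT alone, -0.084 within number 1, and -0.097 (without KO replicate 2) to 0.17 with 1 library left out; Fabp7 to -2.96 with edgeR and -3.26 with DESeq2; Zic5 to -0.11 and Usp17la to -0.0074 within number 1; and Tcstv1 to -0.042 with WT alone. List medians changed sign for LIF and STAT3 (-0.16 with KO alone) and, within replicate number 1, for BMP and TGF-beta (-0.093), p53 (-0.036) and ATF4 (0.24). The cause of these changes was not tested. Leaving out single libraries from the test among lines and from KO against WT was chosen after the data were seen, as were both chromosome alternatives, under which NPC gave 24 and 18 calls.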
